A study of Mus musculus with 15 samples.

Results

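Keratin-associated proteins are small proteins of the hair shaft that fill the space between keratin filaments and cross-link them. They were taken here as every gene whose symbol begins with *Krtap*, which gave 48 of the 21110 genes with a deposited expression value, and they were grouped into 22 subfamilies by the number in the symbol. Keratin-associated proteins are made late in shaft formation, after the hair keratins, and fall by composition into high-sulphur and ultrahigh-sulphur proteins, rich in cysteine, and high glycine-tyrosine proteins. The cysteines form disulphide bonds with the heads and tails of hair keratins, which gives the shaft its hardness. Because shafts are built only while a follicle is in its growth phase, these transcripts are known to come and go with the hair cycle.

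RNA was sequenced from ears of 15 mice on the C57BL/6 background, 1 library a mouse. Of the mice aged 2 weeks, 4 had the wild type genotype and 4 the *Socs3* cKO genotype. Of those aged 10 weeks, 3 had the former and 4 the latter. The study reports more wild type mice at each age than have values here. In *Socs3* cKO mice the gene for the cytokine-signalling inhibitor SOCS3 is deleted in cells that use keratin 5, which marks the basal layer of the epidermis and the outer root sheath of the follicle. Such a deletion passes to the cells that descend from them, which include the upper epidermis and epithelial layers of the follicle, while cells of other origin in the ear keep the gene. The sample source is labelled as keratinocytes while the extraction was from whole ear pieces, and markers of fibroblasts, muscle and cartilage were detected in every mouse, so the values are of ear tissue. The titles carry a serial number whose meaning is not stated. These numbers form a separate run for each group, except that wild type replicate 1 at 2 weeks lies outside the run of its group, so whatever they mark and the group cannot be told apart. Values are FPKM (fragments per length of exon and per number of mapped reads), and the depth behind them is not given in the files. The wild type libraries at 10 weeks stand apart, with 1414 to 3176 genes listed at 0 against 4044 to 4423 in the other 12 libraries, so values near 0 are not alike between them and the rest. *Socs3* itself was 9.71, 10.2, 10.3 and 10.3 FPKM in wild type and 1.25, 9.32, 12.6 and 3.51 in *Socs3* cKO at 2 weeks, which overlapped, and was higher in every *Socs3* cKO mouse at 10 weeks (29.8 to 47.7 against 2.02 to 4.81), so the level of this gene does not check the labels, by which the groups are named here.

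The members sit in clusters. In mm9, the build of the files, 21 lie on chromosome 11, 19 on chromosome 16, 5 on chromosome 7 and 2 on chromosome 10, and *Krtap10-10* was not found by symbol in the annotation. *Krtap5-1*, *Krtap6-2*, *Krtap10-4* and *Krtap14* are pseudogenes in that annotation, and these and *Krtap10-10* have no coding sequence in it. Of the 43 members with a coding sequence there, 10 encode at least 35% glycine and tyrosine and were classed as high glycine-tyrosine, 14 of the others encode at least 30% cysteine (ultrahigh sulphur) and 19 less (high sulphur). *Krtap5-2* falls on the glycine-tyrosine side by this rule with 36.6% glycine and tyrosine, although it also has 31.9% cysteine, and *Krtap7-1*, known as a glycine-tyrosine protein, falls on the sulphur side with 29.9%. The subfamily numbers of the files are partly out of date: RefSeq now gives *Krtap16-4*, *Krtap16-5*, *Krtap16-7*, *Krtap16-8* and *Krtap8-2* the names *Krtap19-4*, *Krtap19-3*, *Krtap21-1*, *Krtap6-5* and *Krtap19-5*. *Krtap16-1* is the name of a gene on chromosome 16 in the mm9 annotation and of another on chromosome 11 in RefSeq, and the files do not say which was counted.

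**Figure D1:**
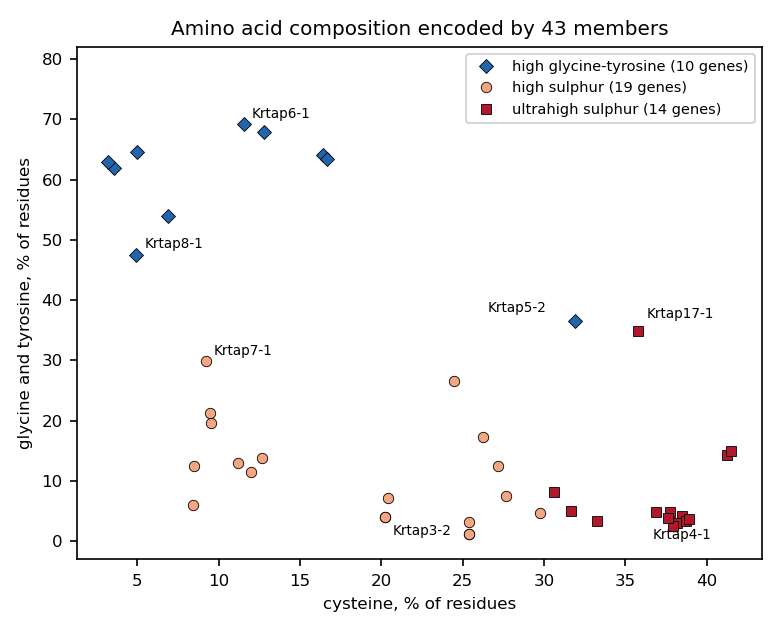
Each point is 1 of the 43 members with a coding sequence in mm9, placed by the share of cysteine (horizontal axis) and of glycine and tyrosine (vertical axis) in the encoded protein, in % of residues. The glycine-tyrosine genes around *Krtap6-1* (69.2% glycine and tyrosine) and the ultrahigh-sulphur genes around *Krtap4-1* (38.5% cysteine) stand at opposite corners, and *Krtap3-2* (20.2% cysteine) lies among the high-sulphur genes.

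The start of the coding sequence shows what the classes mean. The first 120 coding bases of 1 gene of each class are given from mm9, 5′ to 3′ on the gene's own minus strand, for *Krtap4-1* (ultrahigh sulphur, chr11:99488543-99489553), *Krtap3-2* (high sulphur, chr11:99417137-99418167) and *Krtap8-1* (high glycine-tyrosine, chr16:89487619-89488197). Capitals mark cysteine codons in the first pair and glycine and tyrosine codons in *Krtap8-1*.
Krtap4-1: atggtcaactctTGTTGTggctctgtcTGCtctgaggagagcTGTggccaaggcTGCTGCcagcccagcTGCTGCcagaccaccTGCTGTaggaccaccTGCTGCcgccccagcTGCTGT
Krtap3-2: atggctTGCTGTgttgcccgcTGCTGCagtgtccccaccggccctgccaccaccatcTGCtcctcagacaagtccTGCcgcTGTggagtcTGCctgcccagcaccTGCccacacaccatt
Krtap8-1: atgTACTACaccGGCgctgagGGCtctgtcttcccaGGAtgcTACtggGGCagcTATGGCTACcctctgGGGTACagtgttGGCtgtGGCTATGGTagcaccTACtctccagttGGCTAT

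Such repeats make some members hard to tell apart by short reads. Of the 47 members with exons in mm9, 12 share no 50-base stretch with any other place, and 17 share over 25% of theirs. The coding sequences of *Krtap3-2* and *Krtap3-3* are identical (100%), those of *Krtap31-1* and *Krtap31-2*, *Krtap16-8* and *Krtap6-1*, and *Krtap4-1* and *Krtap4-2* are 98.9%, 97.9% and 95.5% identical, and the split of reads within each pair is uncertain. *Krtap14* lies inside the span of *Krtap15* on the other strand, and the library kit does not mark strand. Whether their exons overlap was not tested.

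In wild type mice at 2 weeks the keratin-associated protein genes were strongly expressed. Their summed level was 4136, 3722, 4196 and 5597 FPKM in the 4 mice, between 0.849% and 1.25% of the FPKM of all genes, and 46 of the 48 were at 1 FPKM or more in every mouse. The other pair, *Krtap13* and *Krtap9-5*, stayed below 1 FPKM in every mouse. The high glycine-tyrosine class (1596 to 2371 FPKM) and the high-sulphur class (1620 to 2534 FPKM) held most of the sum, and the 14 ultrahigh-sulphur genes came to 247 to 361 FPKM. The 5 members without a coding sequence, which have no class, came to 232 to 330 FPKM. Of single genes, *Krtap8-1* had the highest mean (783.7 FPKM), followed by *Krtap7-1* (502.1) and *Krtap15* (290.0).

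**Figure D2:**
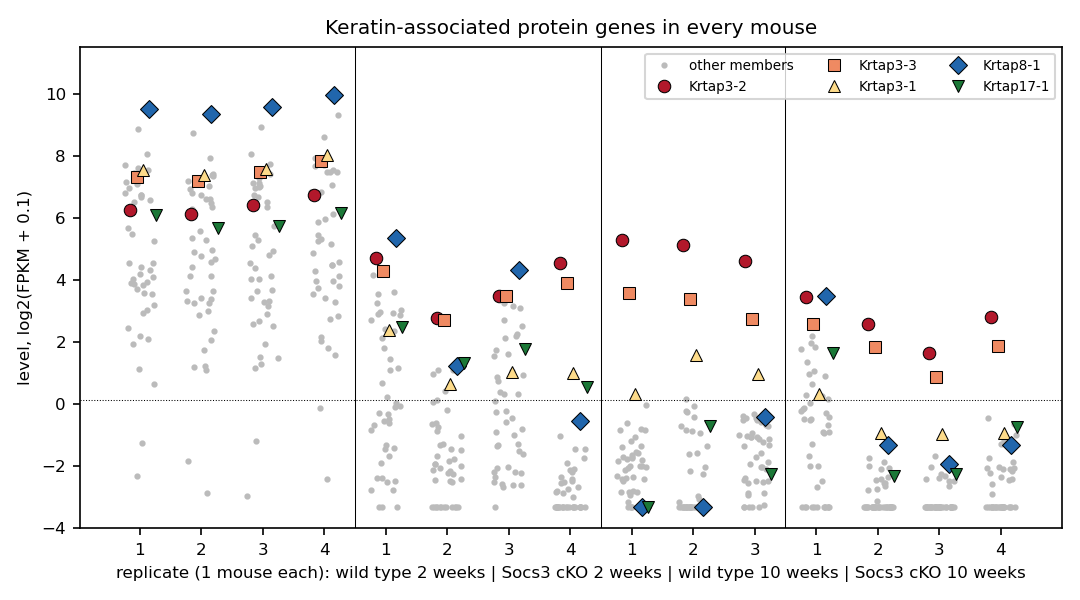
Level of all 48 members in each of the 15 mice, as log2(FPKM + 0.1), with 5 genes marked. The dotted line is 1 FPKM. In wild type at 2 weeks 46 members lie above it in every mouse, while in wild type at 10 weeks the 3 marked *Krtap3* genes are the members that lie above it in every mouse.

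In *Socs3* cKO mice at 2 weeks the summed level was 228, 34.7, 126 and 44.6 FPKM, which is 5.16%, 0.785%, 2.87% and 1.01% of the wild type mean. The mean residual was 2.45% ± 2.03 (SD, n = 4) of wild type, and 1.55% without replicate 1. All 48 members were lower in every *Socs3* cKO mouse than in every wild type mouse, a separation that 28% of the 18316 genes above 0 also showed. The number of members at 1 FPKM or more was 24, 9, 23 and 4 in the 4 mice, against 46 in each wild type mouse. All 46 members that passed the expression filter (at least 1 FPKM in at least 3 of the 8 mice) were called lower by limma, at an adjusted p below 0.01 and a log2 fold change of at least 1 in size, where 7.19% of the 13524 genes tested were called lower and 7.24% higher. The median log2 fold change of the 46 was -6.01, against -0.21 over all genes tested (-0.01 under median-of-ratios scaling and 0.06 under quantile normalization, which left the count at 46). A member that is high in wild type alone passes this filter, so the count of those tested is not independent of the direction, and without a filter 47 of 48 were called. All folds are of FPKM + 0.1 and so are smaller than the ratio of FPKM for genes near 0. In bulk tissue such as this, fewer shaft-forming cells and less RNA in each of them cannot be told apart.

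**Figure D3:**
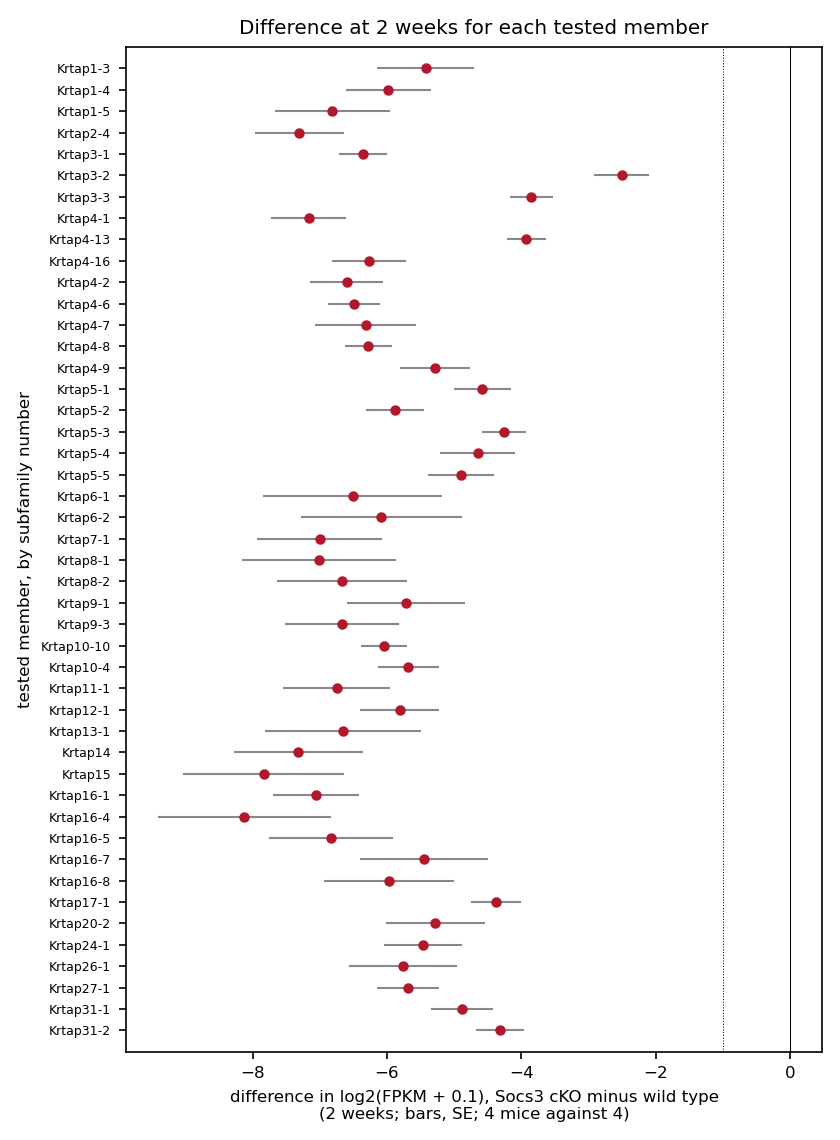
Difference in log2(FPKM + 0.1) between *Socs3* cKO and wild type at 2 weeks for the 46 tested members, ordered by subfamily number, with SE as bars. All points lie left of the dotted line at -1, from -8.12 (*Krtap16-4*) to -2.51 (*Krtap3-2*).

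The largest falls in log2(FPKM + 0.1) at 2 weeks were in *Krtap16-4* (-8.12, SE 1.29, adjusted p = 0.00249), *Krtap15* (-7.84, SE 1.20, adjusted p = 0.00213), *Krtap14* (-7.32, SE 0.96, adjusted p = 0.00102), *Krtap2-4* (-7.30, SE 0.66, adjusted p = 0.000181) and *Krtap4-1* (-7.17, SE 0.55, adjusted p = 9e-05). The smallest were in *Krtap3-2* (-2.51, SE 0.41, adjusted p = 0.00286), *Krtap3-3* (-3.85, SE 0.32, adjusted p = 0.000128), *Krtap4-13* (-3.93, SE 0.29, adjusted p = 7.55e-05), *Krtap5-3* (-4.27, SE 0.33, adjusted p = 8.96e-05) and *Krtap31-2* (-4.32, SE 0.35, adjusted p = 0.00012). *Krtap4-13*, *Krtap5-3* and *Krtap31-2* had wild type means of only 2.18, 2.99 and 2.74 FPKM, which limits how far they can fall on this scale, while *Krtap3-2* and *Krtap3-3* had 84.3 and 176 FPKM.

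High glycine-tyrosine genes encode short proteins rich in glycine and tyrosine that are known from the cortex of the shaft. All 10 of the class were called lower at 2 weeks (median -6.59). *Krtap8-1* was 728, 644, 762 and 1001 FPKM in wild type and 40.3, 2.26, 19.7 and 0.580 FPKM in *Socs3* cKO at 2 weeks, and 0, 0 and 0.655 FPKM in wild type and 11, 0.298, 0.161 and 0.30 FPKM in *Socs3* cKO at 10 weeks. *Krtap6-1* was 208, 169, 171 and 244 FPKM against 12.1, 1.86, 8.86 and 0 at 2 weeks, and 0.553, 0 and 0.354 FPKM against 0.624, 0.0478, 0 and 0 at 10 weeks. The 2-week groups lay far apart for both genes, with *Socs3* cKO replicates 1 and 3 above replicates 2 and 4, while the 10-week groups overlapped. *Krtap16-5* was 186, 166, 212 and 243 FPKM against 7.71, 0.938, 4.25 and 0.169 at 2 weeks, and 0.377, 0 and 0.596 FPKM against 0.753, 0.174, 0 and 0.350 at 10 weeks. *Krtap20-2* was 13.1, 9.49, 7.29 and 13.3 FPKM against 0.554, 0, 0.737 and 0 at 2 weeks, and 0.184, 0.429 and 0.517 FPKM against 0 in all 4 *Socs3* cKO mice at 10 weeks. *Krtap7-1*, put in the sulphur class by the rule, was 463, 421, 489 and 635 FPKM against 17.7, 2.03, 9.43 and 0.522 at 2 weeks, and 0.291, 0.849 and 0.147 FPKM against 3.78, 0, 0.145 and 0.135 at 10 weeks. In each of these genes *Socs3* cKO replicates 1 and 3 were above replicates 2 and 4 at 2 weeks.

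Among the cysteine-rich subfamilies, proteins of the KAP4 and KAP9 subfamilies are known from the cortex, and those of KAP5, KAP10, KAP12 and KAP17 from the cuticle, the layer of flat cells around the shaft. All 13 tested genes of the ultrahigh-sulphur class were called lower at 2 weeks (median -5.72). All 8 *Krtap4* genes were among them (median -6.29), and all 5 *Krtap5* genes were also called lower (median -4.65). The rule spread the *Krtap5* genes over the classes, except *Krtap5-1*, which has none. *Krtap4-1* was 38.4, 40.6, 43.2 and 57.9 FPKM in wild type and 0.582, 0.150, 0.443 and 0 in *Socs3* cKO at 2 weeks, and 0.150, 0 and 0.0761 FPKM in wild type and 0 in all 4 *Socs3* cKO mice at 10 weeks. *Krtap9-3*, with 27.2% cysteine in the high-sulphur class by the rule, was 95.5, 88.1, 106 and 132 FPKM against 5.04, 0.544, 1.57 and 0.0980 at 2 weeks, and 0.342, 0.646 and 0.0369 FPKM against 1.1, 0.201, 0 and 0 at 10 weeks. Both cortex genes were apart between genotypes at 2 weeks and near 0 at 10 weeks, where *Krtap9-3* passed 1 FPKM in *Socs3* cKO replicate 1. *Krtap5-2* was 14.2, 9.82, 8.92 and 13.7 FPKM against 0, 0.164, 0.306 and 0.0369 at 2 weeks, and 0.461, 0.0137 and 0.0703 FPKM against 0.922, 0.152, 0 and 0.136 at 10 weeks. *Krtap10-10* was 17.0, 10.6, 12.4 and 17.5 FPKM against 0.305, 0.110, 0.0654 and 0.0494 at 2 weeks, and 0.0441, 0 and 0.00465 FPKM against 0.642, 0.0507, 0 and 0.115 at 10 weeks. *Krtap12-1*, in the high-sulphur class by the rule with 25.4% cysteine, was 19.6, 17.2, 16.1 and 22.0 FPKM against 0.869, 0.259, 0.255 and 0 at 2 weeks, and 0.130, 0 and 0.526 FPKM against 3.51, 0, 0 and 0.377 at 10 weeks. These 3 cuticle genes were each highest, among *Socs3* cKO mice at 10 weeks, in replicate 1. *Krtap17-1* was 68.6, 50.4, 53.7 and 71.0 FPKM against 5.54, 2.39, 3.31 and 1.37 at 2 weeks, and 0, 0.508 and 0.110 FPKM against 3.05, 0.10, 0.108 and 0.505 at 10 weeks. With the 3 *Krtap3* genes it was among the 4 members at 1 FPKM or more in every *Socs3* cKO mouse at 2 weeks.

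Of the high-sulphur subfamilies, KAP1, KAP2 and KAP3 are known from the cortex, and *Krtap14* and *Krtap15* were first described in the mammary gland at puberty. Of the 19 genes of the class 18 were tested and all 18 were called lower at 2 weeks (median -5.90). *Krtap14*, a pseudogene in mm9 without a coding sequence, is in no class. *Krtap1-5* was 125, 106, 127 and 178 FPKM against 4.25, 0.506, 2.99 and 0.130 at 2 weeks, and 0, 0.508 and 0.711 FPKM against 0.435, 0, 0 and 0.0673 at 10 weeks. *Krtap2-4* was 50.4, 47.6, 53.6 and 70.3 FPKM against 0.920, 0.113, 0.575 and 0 at 2 weeks, and 0.151, 0.756 and 0.420 FPKM against 0.0565, 0, 0 and 0.202 at 10 weeks. *Krtap11-1* was 135, 121, 140 and 185 FPKM against 5.26, 0.451, 2.81 and 0.271 at 2 weeks, and 0.151, 0 and 0.382 FPKM against 4.45, 0.139, 0 and 0.630 at 10 weeks. Again the 2-week groups were apart and the 10-week groups overlapped. *Krtap13-1* was 106, 97.2, 125 and 176 FPKM against 7.50, 0.775, 3.27 and 0 at 2 weeks, and 0.222, 0 and 0.675 FPKM against 2.00, 0, 0.110 and 0 at 10 weeks. *Krtap14* was 112, 111, 129 and 178 FPKM against 3.40, 0.557, 1.83 and 0 at 2 weeks, and 0.0932, 0.109 and 0.377 FPKM against 1.86, 0.0858, 0.0927 and 0.173 at 10 weeks. *Krtap15* was 263, 243, 265 and 389 FPKM against 9.55, 0.191, 4.52 and 0.0861 at 2 weeks, and 0.288, 0.448 and 0.292 FPKM against 3.36, 0.0884, 0 and 0.0891 at 10 weeks. *Krtap14* and *Krtap15*, whose spans overlap on opposite strands, had the same order of mice at 2 weeks in *Socs3* cKO. *Krtap1-5*, *Krtap11-1* and *Krtap13-1* had this order too, so it is not particular to the pair. The 10-week replicate 1 was the highest *Socs3* cKO mouse of its age for 35 members, both genes among them.

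Of the remaining subfamilies, *Krtap26* had the highest level in wild type at 2 weeks. *Krtap24-1*, known from the cuticle, was 15, 12.4, 12.8 and 22.3 FPKM against 0.834, 0.0884, 0.479 and 0.0398 at 2 weeks, and 0, 0 and 0.135 FPKM against 1.02, 0, 0 and 0.124 at 10 weeks. *Krtap26-1* was 44.8, 38.8, 38.5 and 62.4 FPKM against 2.62, 0.393, 2.01 and 0.0707 at 2 weeks, and 0.473, 0 and 0.639 FPKM against 2.44, 0, 0.157 and 0.146 at 10 weeks. Both kept the highest residual in *Socs3* cKO replicate 1 at each age. *Krtap27-1* was 8.0, 7.90, 9.57 and 11.7 FPKM against 0.166, 0, 0.294 and 0 at 2 weeks, and 0 in the 3 wild type mice against 0.150, 0, 0 and 0 at 10 weeks. *Krtap31-1* was 3.69, 4.10, 5.84 and 7.09 FPKM against 0.273, 0, 0.138 and 0 at 2 weeks, and 0.0396, 0.126 and 0.0801 FPKM against 0 in all 4 *Socs3* cKO mice at 10 weeks. At 10 weeks these 4 genes were below 1 FPKM in every wild type mouse and, except for *Krtap24-1* and *Krtap26-1* in replicate 1, in every *Socs3* cKO mouse. None of the 4 passed the expression filter for the comparison of genotypes at that age.

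The *Krtap3* subfamily was the exception. *Krtap3-2*, the member with the highest mean in each of the other 3 groups, was 76.5, 69.6, 84.8 and 106 FPKM in wild type and 26.1, 6.70, 11 and 23.1 FPKM in *Socs3* cKO at 2 weeks. At 10 weeks it was 38.8, 34.4 and 24.5 FPKM in wild type and 10.9, 5.94, 3.02 and 6.94 FPKM in *Socs3* cKO. The 2 genotypes did not overlap at either age, and wild type at 10 weeks kept 38.6% of the wild type mean at 2 weeks. *Krtap3-3* was 159, 145, 176 and 225 FPKM against 19.4, 6.37, 11.1 and 14.8 at 2 weeks, and 11.9, 10.4 and 6.51 FPKM against 5.82, 3.49, 1.75 and 3.52 at 10 weeks. *Krtap3-1*, the strongest of the 3 in wild type at 2 weeks, was 186, 166, 189 and 260 FPKM against 5.15, 1.46, 1.94 and 1.90 at 2 weeks, and 1.17, 2.90 and 1.84 FPKM against 1.16, 0.419, 0.419 and 0.422 at 10 weeks. *Krtap3-1* therefore lay with the other members at 2 weeks (1.30% of wild type in *Socs3* cKO on the means), while *Krtap3-2* kept 19.8% and *Krtap3-3* 7.33%. The 3 genes lie side by side on chromosome 11 (*Krtap3-3* at chr11:99411446-99412177, *Krtap3-2* at chr11:99417137-99418167, *Krtap3-1* at chr11:99427341-99427944 of mm9, all on the minus strand). Since *Krtap3-2* and *Krtap3-3* share their coding sequence, their separate levels are uncertain, and 28.9% and 41.6% of their 50-base exon stretches occur elsewhere.

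As a subfamily, *Krtap3* kept 11%, 3.15%, 5.21% and 8.64% of its wild type level in the 4 *Socs3* cKO mice at 2 weeks, against 4.48%, 0.509%, 2.59% and 0.122% for the sum of the other 45 members. In replicate 4 the gap was widest, and there the other members were nearly absent. *Krtap3* made up 10.2% to 10.7% of the members' summed FPKM in wild type at 2 weeks. It made up 22.3%, 41.9%, 19.0% and 89.2% in *Socs3* cKO at 2 weeks, 87.2%, 86.3% and 72.2% in wild type at 10 weeks and 25.9%, 81.8%, 78.7% and 68.1% in *Socs3* cKO at 10 weeks. Its share was thus above the wild type range at 2 weeks in all 11 of the other mice.

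**Figure D4:**
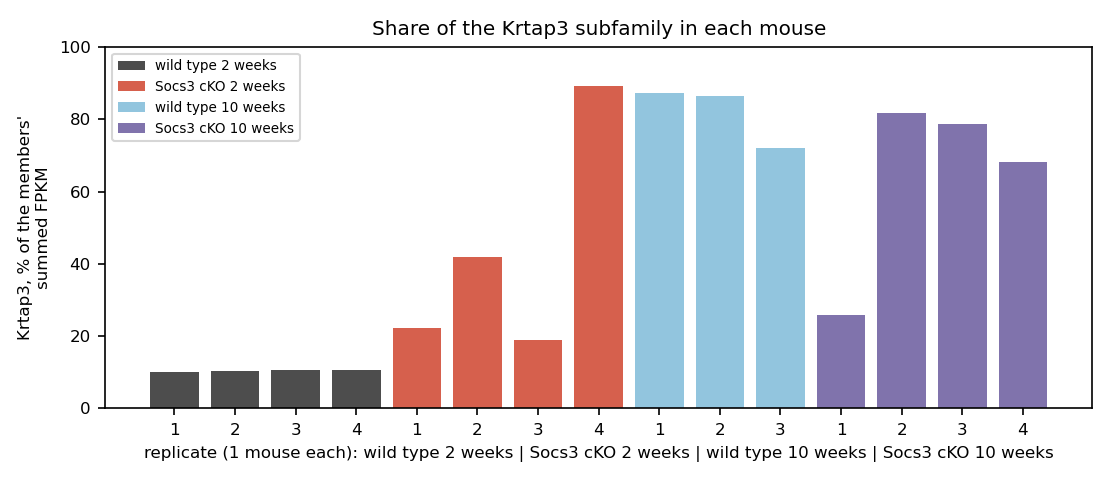
Share of the 3 *Krtap3* genes in the summed FPKM of all 48 members, in % (bars from 0), for each of the 15 mice. The bars stand at 10.2% to 10.7% in wild type at 2 weeks and at 19.0% to 89.2% in the other groups.

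The promoters of the members were compared by sequence. RefSeq (GRCm38.p6) gave a promoter of 300 bases around the start for 42 members, matched by symbol or synonym, of which 35 (83.3%) held the letters TATAAA on either strand, against 13.6% of 32851 promoters. The letters CTTTGAA or CTTTGTT, written for the factors LEF1 and TCF that act in shaft precursors, occurred on either strand in 12 (28.6%), against 10.6% of all promoters. The 100 bases before the start are given for the member with the highest level and for the pair that stood apart, with TATAAA in capitals: *Krtap8-1* (chr16:89487953-89488052), *Krtap3-2* (chr11:99556854-99556953) and *Krtap3-3* (chr11:99550864-99550963), all on the minus strand of GRCm38.p6, which is not the build of the files.
Krtap8-1: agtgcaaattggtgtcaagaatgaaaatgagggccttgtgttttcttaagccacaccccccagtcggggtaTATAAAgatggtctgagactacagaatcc
Krtap3-2: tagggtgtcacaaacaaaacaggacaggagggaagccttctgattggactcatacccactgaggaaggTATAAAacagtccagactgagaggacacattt
Krtap3-3: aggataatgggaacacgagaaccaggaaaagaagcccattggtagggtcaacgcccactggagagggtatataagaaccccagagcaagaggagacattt
These letters are a description of the windows. *Krtap3-3* does not hold TATAAA in its window, and *Krtap3-2* does. Only this spelling was searched, and the printed bases of *Krtap3-3* hold the similar letters tatataag.

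The residual was not the same in each *Socs3* cKO mouse. At 2 weeks 37 members were highest in replicate 1, 9 in replicate 3 and 1, *Krtap4-8*, in replicate 2, and *Krtap13* was at 0 in all 4. Replicate 1 kept between 1.44% (*Krtap4*) and 11% (*Krtap3*) of the wild type mean across subfamilies, and *Krtap17* was next at 9.09%. Replicate 3 kept between 0.459% (*Krtap10*) and 6.83% (*Krtap20*). Replicate 2 kept at most 1.38% in subfamilies other than *Krtap3* (3.15%) and *Krtap17* (3.92%), and replicate 4 at most 0.497% other than in *Krtap3* (8.64%) and *Krtap17* (2.24%). *Krtap3* and *Krtap17* were thus the 2 subfamilies above 2% of wild type in all 4 mice. Leaving out any 1 mouse left between 38 and 46 of the 46 members called at 2 weeks. The count was 38 without wild type replicate 1, whose serial number stands apart, and 40, 39 and 38 without wild type replicates 2, 3 and 4.

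**Figure D5:**
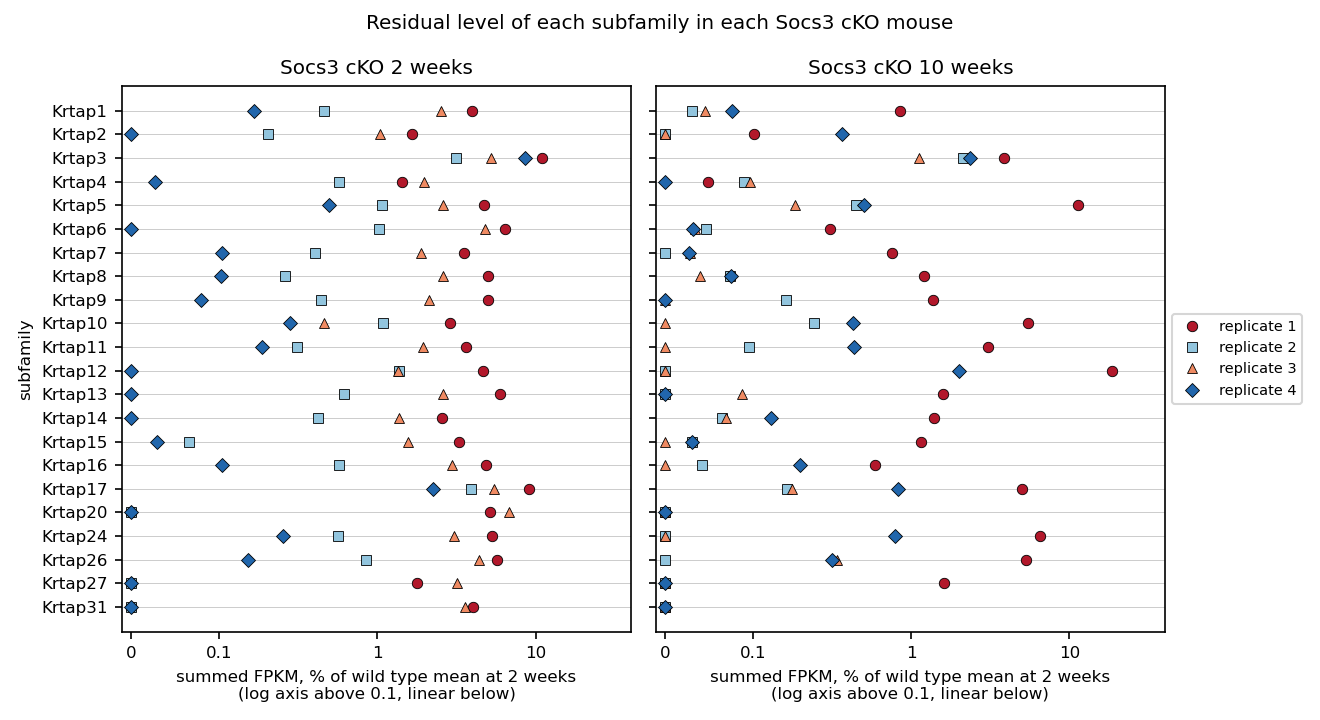
Summed FPKM of each of the 22 subfamilies in each *Socs3* cKO mouse at 2 weeks (left) and 10 weeks (right), in % of the mean of wild type mice at 2 weeks, on an axis that is logarithmic above 0.1% and linear below. At 2 weeks *Krtap3* and *Krtap17* are right of 2% in all 4 mice, and at 10 weeks replicate 1 stands right of the other 3 in most subfamilies, up to 18.7% for *Krtap12*.

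Other genes of the follicle were also lower at 2 weeks. Of 14 hair keratin genes, the filament partners of these proteins, 13 were called lower at 2 weeks (median -7.09), and *Krt84* was not (-0.59, SE 0.36, adjusted p = 0.192). All 8 genes of the inner root sheath list, the follicle layer that moulds the shaft, were called lower (median -6.60), as were 10 of 13 regulators and other shaft genes (median -3.41). The summed inner root sheath level was 66.4, 12.6, 53.2 and 7.18 FPKM in *Socs3* cKO replicates 1 to 4 at 2 weeks, against 2278 to 3382 in wild type. Replicates 1 and 3 were the higher pair here, as for the members. The sums of the other lists had another order of mice. The hair keratin sum was 27.6, 30.9, 29.6 and 13.4 FPKM in these 4 mice, highest in replicate 2, against 777 to 1262 FPKM in wild type. *Krt84*, not called, held much of it. Of the 13 called, all but *Krt32* were higher in replicates 1 and 3 than in 2 and 4. The sum of regulators and other shaft genes was 66.5, 94.8, 104 and 86.1 FPKM, lowest in replicate 1, against 1045 to 1421 FPKM. *Hr*, not called, was 2.66, 41.1, 39.4 and 39.7 FPKM of it. Of the 10 called, *Hoxc13*, *Foxn1*, *Msx2*, *Dlx3* and *Lef1* were also lowest in replicate 1. *Prr9*, *S100a3*, *Dsg4* and *Vsig8* were highest in replicates 1 and 3, and *Padi3* in replicates 3 and 2. *Krt84* was 9.02, 27.4, 18.7 and 9.61 FPKM in *Socs3* cKO and 20.4, 20.9, 18.9 and 28.4 FPKM in wild type, so its groups overlapped where those of the members did not. Whether the part of follicles in growth differed between these ears was not tested.

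Markers of other cells of the ear moved less at 2 weeks. The summed level of 5 fibroblast markers was 12360 to 14517 FPKM in wild type and 4737 to 6676 FPKM in *Socs3* cKO, with 3 called lower and 1 higher, and that of 5 skeletal muscle markers was 602 to 916 FPKM against 1418 to 2802 FPKM, with 3 called higher. Of 5 sebaceous gland markers 3 were called higher (96.3 to 113 FPKM against 212 to 324 FPKM), of 8 interfollicular keratinocyte markers 1 was called higher (10867 to 11697 FPKM against 7765 to 15648 FPKM), and of 4 cartilage markers tested 1 was called lower (186 to 309 FPKM against 31.4 to 186 FPKM, with *Matn1* at 0 in some mice of each group). Of 6 melanocyte, 4 adipocyte, 5 leukocyte and 5 cycling cell markers 0 were called by limma, with 3, 1, 3 and 0 at an unadjusted p below 0.05. Their part in the fall of the members was not tested.

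With age, the members fell in wild type. The sum was 59.5, 55.2 and 45.5 FPKM at 10 weeks, 1.21% ± 0.16 (SD, n = 3) of the 2-week mean, and 47 of 48 members were lower in every 10-week than in every 2-week wild type mouse (35.9% of 20375 genes showed this), *Krtap13* being the exception near 0. All 46 tested members were called lower (46 of 48 without a filter, median of the 46 -6.99, against -0.45 over all genes tested), where 26.2% of 13447 genes were called lower and 6.77% higher. Over all genes the split was 3528 lower and 911 higher, and 2121 and 1661 under median-of-ratios scaling or 1630 and 1671 under quantile normalization, which put the median at -0.06 and 0.06 and left 45 and 46 members called. The largest falls were in *Krtap8-1* (-11.94, SE 0.64, adjusted p = 3.28e-06), *Krtap7-1* (-10.10, SE 0.39, adjusted p = 5.71e-07), *Krtap16-8* (-10.00, SE 0.33, adjusted p = 3.12e-07), *Krtap16-4* (-9.75, SE 0.62, adjusted p = 7.85e-06) and *Krtap15* (-9.35, SE 0.20, adjusted p = 6.94e-08). The smallest were in *Krtap3-2* (-1.38, SE 0.19, adjusted p = 0.000354), *Krtap5-3* (-3.70, SE 0.42, adjusted p = 0.000127), *Krtap31-2* (-3.75, SE 0.35, adjusted p = 4.82e-05), *Krtap5-1* (-3.93, SE 0.41, adjusted p = 8.52e-05) and *Krtap3-3* (-4.21, SE 0.22, adjusted p = 3.28e-06). Without the *Krtap3* subfamily, the sum at 10 weeks was 7.63, 7.55 and 12.7 FPKM. These comparisons share the wild type mice at 2 weeks with the comparison of genotypes.

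At 10 weeks the genotypes could be compared for few members. Only the 3 *Krtap3* genes passed the filter of 1 FPKM in at least 3 of the 7 mice. *Krtap3-2* was called lower in *Socs3* cKO (-2.38, SE 0.37, adjusted p = 0.00172), where 2.43% of 13105 genes were called lower and 12.5% higher. *Krtap3-1* (-1.58, SE 0.43, adjusted p = 0.0176) and *Krtap3-3* (-1.44, SE 0.37, adjusted p = 0.0146) did not pass the threshold, though every *Socs3* cKO mouse was below every wild type mouse for all 3 genes. For *Krtap3-1* this was nearly a tie, with *Socs3* cKO replicate 1 at 1.165 FPKM and wild type replicate 1 at 1.166 FPKM. All 3 were called without *Socs3* cKO replicate 1 and under median-of-ratios scaling or quantile normalization. The median over all genes tested was 0.31 at 10 weeks and 0.06 and -0.04 under those scalings, which turned the split over all genes from 319 lower and 1638 higher to 632 and 1073, and to 817 and 909. In all, 8 of 48 members (*Krtap3-1*, *Krtap3-2*, *Krtap3-3*, *Krtap6-2*, *Krtap8-2*, *Krtap20-2*, *Krtap31-1* and *Krtap31-2*) had every *Socs3* cKO mouse below every wild type mouse at 10 weeks, where 16% of 20356 genes did, and none had every one above. Those outside *Krtap3* were at 1.02 FPKM or less in every mouse of this age, and *Krtap20-2*, *Krtap31-1* and *Krtap31-2* were at 0 in every *Socs3* cKO mouse. The wild type libraries of this age list fewer genes at 0 than the rest, so gaps this near 0 and that difference cannot be told apart. As a subfamily *Krtap3* summed to 44.1 ± 9.99 FPKM in wild type (SD, n = 3) and 10.9 ± 5.24 in *Socs3* cKO (SD, n = 4) at 10 weeks. Of the 48 members, 44 were below 1 FPKM in every wild type mouse at 10 weeks, and none of these passed the filter. Without the filter *Krtap20-2*, 1 of the 44, was called lower (-2.18, SE 0.31, adjusted p = 0.0024 by limma), on levels of 0.517 FPKM or less.

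Replicate 1 of *Socs3* cKO at 10 weeks stood apart. Its summed level was 69.1 FPKM, against 12.0, 6.59 and 16 FPKM in the other 3, and 17 members reached 1 FPKM there against 2 in each of the others. Its residual was uneven across subfamilies: 18.7% of the 2-week wild type mean for *Krtap12*, 11.3% for *Krtap5*, 6.54% for *Krtap24*, 5.48% for *Krtap10*, 5.30% for *Krtap26* and 5.00% for *Krtap17*, against 1.21% for *Krtap8*, 0.589% for *Krtap16* and 0.0489% for *Krtap4*. KAP5, KAP10, KAP12, KAP17 and KAP24 are the subfamilies named above as cuticle proteins, while *Krtap26* is not among them and was above *Krtap17*. In the same mouse *Krtap3* was at 3.88% and *Krtap11* at 3.06%. The grouping was made after the values were seen and rests on 1 mouse. The inner root sheath list was also highest in this mouse, at 76.5 FPKM against 3.92 to 8.86 FPKM in the other 3, as were the hair keratins (17.9 against 1.32 to 3.92 FPKM) and, by less, the regulators and other shaft genes (112 against 72.4 to 106 FPKM). In *Socs3* cKO mice at 2 weeks *Krtap5* and *Krtap12* did not stand above the rest in this way, at 4.71% and 4.63% in replicate 1.

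The order of mice also differed between subfamilies in wild type at 2 weeks. Replicate 4 was the highest wild type mouse for 42 of 48 members, and the other 6 were *Krtap13* and all 5 *Krtap5* genes. In % of the group mean, replicates 1 to 4 were 126.7, 90.4, 69.1 and 114 for *Krtap5*, 118, 74.9, 83.2 and 124 for *Krtap10*, 105, 91.9, 86.0 and 117.5 for *Krtap12*, 113, 82.7, 88.2 and 117 for *Krtap17* and 96.0, 79.4, 81.7 and 143 for *Krtap24*. They were 91.4, 82.6, 97.6 and 128 for *Krtap3*, 92.5, 82.1, 97.3 and 128 for *Krtap8* and 79.8, 96.4, 93.6 and 130.2 for *Krtap4*. Replicate 1 was thus above the mean for *Krtap5*, *Krtap10*, *Krtap12* and *Krtap17*, and below it for *Krtap24*, the other cuticle subfamily. It was also above the mean for *Krtap20* (121), *Krtap6* (104) and *Krtap16* (100.3), which are not cuticle subfamilies. These groups of subfamilies were picked after their values were seen, and the pattern rests on 1 mouse, wild type replicate 1, whose serial number lies outside the run of its group.

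Within *Socs3* cKO the change with age was not resolved. Of the 17 members tested, 0 were called in either direction by limma and 8 had an unadjusted p below 0.05, where 0.425% of 13179 genes were called lower and 0.683% higher. Members that are high in the 2-week mice alone, such as *Krtap6-1* and *Krtap16-8*, passed this filter, which sets the direction for them, and over all 48 members without a filter the median difference was -1.24 and 0 were called. Of the 17, the largest differences were in *Krtap16-8* (-3.57, SE 1.07, adjusted p = 0.111), *Krtap6-1* (-3.57, SE 1.43, adjusted p = 0.218), *Krtap7-1* (-3.32, SE 1.31, adjusted p = 0.212), *Krtap16-7* (-2.94, SE 1.19, adjusted p = 0.221) and *Krtap8-1* (-2.86, SE 1.53, adjusted p = 0.349). The smallest were in *Krtap16-4* (-0.83, SE 1.53), *Krtap14* (-1.13, SE 1.16), *Krtap26-1* (-1.23, SE 1.14), *Krtap3-2* (-1.24, SE 0.51) and *Krtap11-1* (-1.33, SE 1.25), with adjusted p-values from 0.225 to 0.75. With all 4 groups in 1 fit, *Krtap3-1* and *Krtap3-3* were called lower at 10 weeks.

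The genotype by age interaction, the difference between genotypes at 10 weeks minus that at 2 weeks, was above 0 for the 46 members tested and was called for 41, where 18.5% of 13937 genes were called higher and 7.05% lower. The scaling moved the median of all genes here from 0.55 to 0.10 or -0.09, and 36 members were called under either scaling. The split over all genes moved from 983 lower and 2583 higher to 1664 and 1806 or 2337 and 1805. With a pseudocount of 0.01 the count was 16. The members passed the filter through wild type at 2 weeks, and 44 of the 48 were below 1 FPKM in every wild type mouse at 10 weeks, so for them the term mostly restates the difference at 2 weeks. The largest were in *Krtap8-1* (9.09, SE 1.89, adjusted p = 0.00231), *Krtap16-4* (8.92, SE 1.88, adjusted p = 0.0025), *Krtap11-1* (7.96, SE 1.51, adjusted p = 0.0014), *Krtap14* (7.79, SE 1.37, adjusted p = 0.000902) and *Krtap15* (7.45, SE 1.75, adjusted p = 0.00446). The smallest were in *Krtap3-2* (0.13, SE 0.61, adjusted p = 0.868), *Krtap3-3* (2.41, SE 0.53, adjusted p = 0.00317), *Krtap20-2* (3.10, SE 0.89, adjusted p = 0.0121), *Krtap31-2* (3.29, SE 0.52, adjusted p = 0.000488) and *Krtap5-3* (3.48, SE 0.67, adjusted p = 0.00156). *Krtap3-2*, *Krtap6-1*, *Krtap6-2*, *Krtap16-7* and *Krtap20-2* were not called. For *Krtap3-2*, which was expressed at both ages in both genotypes, the difference between genotypes was -2.51 at 2 weeks and -2.38 at 10 weeks, and the sign of its interaction turned under median-of-ratios scaling (-0.33).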

How the data were processed

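RNA of 15 ears, 1 mouse and 1 library each, was read as single reads of 50 bases. Per the submitters' processing notes the authors used TopHat2 2.1.0, Cufflinks and mm9, and they deposited 1 FPKM value per gene and mouse, normalized for exon length and mapped reads. Counts and depth are not given, so no counting error could be derived. Groups and replicate numbers came from the sample labels, which do not link mice between groups. The members and lists were chosen with earlier results of these data known.

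Values were compared as log2(FPKM + 0.1) with limma 3.58.1 (R 4.3.3), whose prior variance followed the mean level, over all genes with at least 1 FPKM in at least 3 of the mice compared, in 2-sided tests with Benjamini-Hochberg adjustment. A gene was called at an adjusted p below 0.01 and a log2 fold change of at least 1 in size, and for the interaction at the adjusted p alone. The step was tested on simulated data. Values in every mouse are given for the strongest member of each subfamily in wild type at 2 weeks and the strongest member of each other group, and fold changes for the 5 largest and 5 smallest of each comparison. *Krtap3-3* was added after its values were seen. Alternatives were other pseudocounts, filters, scalings, prior and fits, removal of a length and GC trend, a replicate block, and leaving out each mouse. Composition, shared stretches of exons and coding sequences came from a GENCODE annotation of mm9, and promoters from RefSeq. Other steps used Python 3.11.15 with pandas 2.3.3 and numpy 2.4.6.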

Additional observations from a re-analysis of the deposited data

Results flagged for a closer look

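In groups of 4 mice, a value was marked where its gap to the nearest other mouse exceeded Dixon's critical share of the group's range. Chance marks about 1 in 20 groups where values are normally distributed, which FPKM near 0 are not, so no excess can be read from that rate. The mark was given in 25 of 105 combinations of a group with a gene or subfamily, and the combinations share mice. Of these, 23 were replicate 1 of *Socs3* cKO at 10 weeks. Its sums were 69.1 FPKM for all members, 1.68 for *Krtap1*, 3.83 for *Krtap5*, 0.935 for *Krtap6*, 11.4 for *Krtap8*, 1.72 for *Krtap9*, 1.47 for *Krtap10* and 2.00 for *Krtap13*. Its single genes were *Krtap1-5* at 0.435 FPKM, *Krtap3-1* at 1.16, *Krtap5-2* at 0.922, *Krtap6-1* at 0.624, *Krtap7-1* at 3.78, *Krtap8-1* at 11, *Krtap11-1* at 4.45, *Krtap12-1* at 3.51, *Krtap13-1* at 2.00, *Krtap14* at 1.86, *Krtap15* at 3.36, *Krtap17-1* at 3.05, *Krtap24-1* at 1.02, *Krtap26-1* at 2.44 and *Krtap27-1* at 0.150. *Krtap3-1* at 5.15 FPKM in *Socs3* cKO replicate 1 and *Krtap15* at 389 FPKM in wild type replicate 4, both at 2 weeks, were marked too.

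The interaction of genotype and age was called for 41 of 46 members tested, and for 16 with a pseudocount of 0.01. Of the 48 members 44 were below 1 FPKM in every wild type mouse at 10 weeks, where little further fall could be measured, so for these the term mostly restates the difference between genotypes at 2 weeks.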

How the results depend on the processing

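At 2 weeks 46 members were called, and 41 to 47 under the other settings (42 with a pseudocount of 0.01, 41 with the replicate block, 47 without a filter) and 38 to 46 without 1 mouse. The 13 hair keratin genes called stayed 13 in all settings run, and the wild type change with age stayed at 45 or 46. The mean residual of 2.45% of wild type was 3.12% under median-of-ratios scaling, 1.81% without members near-identical to another, 1.92% without *Krtap3* (added after seeing the data) and 1.55% to 3.01% without 1 mouse. At 10 weeks 1 member was called in the main fit, 2 without an expression filter (*Krtap3-2* and *Krtap20-2*), 3 under median-of-ratios scaling, 3 under quantile normalization and 1 to 3 without 1 mouse. The 10 against 2 weeks change within *Socs3* cKO rose from 0 to 2 members with all 4 groups in 1 fit. The interaction fell from 41 to 16 with a pseudocount of 0.01 and was 33 to 45 without 1 mouse. Of the single-gene fold changes under other settings, 1824 were on the same side of the threshold, 75 lost the call, 17 gained it and 5 turned sign. All 5 were the interaction of *Krtap3-2* (0.13), at -0.33 under median-of-ratios scaling and -0.23 to 0.46 without 1 mouse. The causes were not tested.

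Same-numbered mice did not deviate together (correlations of -0.21 to 0.14), so the numbers do not pair the mice. With the replicate block 41 members were called at 2 weeks, 2 at 10 weeks (*Krtap3-2* and *Krtap3-3*), 46 with age in wild type, 0 in *Socs3* cKO and 43 in the interaction, where *Krtap3-2* was at -0.00017.

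The depth is unknown, and values near 0 FPKM limit the 10-week comparisons. Reads of near-identical members cannot be assigned with certainty.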
